A study of Rattus norvegicus with 12 samples.

Results

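The genes described here make, load, clear and sense the inhibitory transmitter GABA, or set the chloride gradient on which its fast action depends. The set holds 8 genes: Gad1, Gad2, Slc32a1, Slc6a11, Gabbr1, Gabbr2, Slc12a5 and Slc12a2. All array probes that a RefSeq symbol table tied to one of these names were taken, which gave 11 probes for 7 of the 8 genes among 11110 genes tested. No probe was tied to Slc32a1, the vesicular GABA transporter, and it was not analysed here. All 11 probes were well above background on all 12 arrays. The genes were taken by name and not by a cut on measured values, but they were chosen with earlier results of these data known.

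The striatum, the main input nucleus of the basal ganglia, consists mostly of spiny projection neurons that release GABA. Glutamate decarboxylase, in a larger form encoded by Gad1 and a smaller form encoded by Gad2, makes GABA from glutamate. Slc32a1 loads it into vesicles, and Slc6a11 encodes GAT-3, a plasma membrane transporter found mainly on astrocytes. GABA-B receptors, which couple to G proteins, are obligate pairs of the products of Gabbr1, which binds GABA, and Gabbr2, which engages the G protein. Fast GABA-A currents are carried by chloride. Slc12a5 encodes KCC2, the neuronal carrier that moves chloride out of the cell, and Slc12a2 encodes NKCC1, which moves it in and is also abundant in the choroid plexus.

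RNA came from the striatum of male Wistar rats and was hybridised to 12 single-colour arrays, 3 in each of 4 groups, with 3 animals assigned to each group by the study's design text. Every rat had received 6-hydroxydopamine, a toxin that kills dopamine neurons, in the medial forebrain bundle of the left side, so the non-lesioned group is the other striatum of injected rats and not of intact ones. Whether non-lesioned and lesioned saline arrays came from the same animals is not given in the sources used here. All rats had also been given methamphetamine once at 3 mg/kg and were kept if they made at least 7 turns per minute. The non-lesioned saline and lesioned saline groups then received saline, the lesioned L-DOPA group was given L-DOPA (100 mg/kg), and in the lesioned L-DOPA plus zonisamide group the same dose was followed after 30 min by zonisamide (50 mg/kg). Treatment began 7 days after the methamphetamine test and was given daily for 7 days, and L-DOPA was preceded by benserazide, which blocks its conversion to dopamine outside the brain. Dopamine is made from L-DOPA in the brain. Zonisamide is given against epilepsy and as an add-on in Parkinson's disease. There was no group given zonisamide alone and no non-lesioned side of a drug-treated rat.

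Levels below are log2 processed signals relative to the 75th percentile of the same array, so 0 is the brightness of that percentile and a step of 1 is a doubling. Levels are compared only within a probe, because probes differ in how strongly they bind. Where a gene had more than 1 probe, the brighter one stood for it. Differences come from 1 limma model over 12 arrays and 19412 features, with p values adjusted by Benjamini-Hochberg over all features of a comparison, and a gene is called when its adjusted p is under 0.05. The tests are two-sided. All comparisons with the same group share its arrays and are not independent of each other. In tissue RNA, fewer cells of a type and less RNA per cell cannot be told apart.

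The spread of replicate spots within an array ran from 3.74% on lesioned saline replicate 3 to 27.8% on L-DOPA plus zonisamide replicate 3, and 5 arrays exceeded 20%, namely the whole non-lesioned group, L-DOPA replicate 3 and L-DOPA plus zonisamide replicate 3. In the quality check of the scanner files, only lesioned saline replicate 3 was marked as in range. Spiny projection neuron markers were bright, with a summed level of 13 of 15 listed markers between 7.53 and 8.12 over all arrays, and at 7.65 to 7.78 in L-DOPA against 7.87 to 8.01 in lesioned saline. For choroid plexus, the summed level of 9 of 12 listed markers ran from 2.43 to 7.05 on the non-lesioned side, from -0.09 to 4.40 in lesioned saline, from 4.36 to 7.40 in L-DOPA and from 2.79 to 6.76 in L-DOPA plus zonisamide. The summed level of 4 of 8 listed markers of cortical projection neurons was 0.97 to 1.31 in L-DOPA and between -0.78 and 0.47 in the other groups. The sum of 8 vascular markers was 2.70 to 3.24 in L-DOPA and at most 2.54 elsewhere. That of 10 interneuron markers was 4.37 to 4.45 in L-DOPA and at least 4.53 elsewhere. With the mean log2 level of a list in place of the sum, L-DOPA overlapped other groups for cortical, vascular and interneuron markers. Cortical means were -1.24 and -2.91 on L-DOPA replicates 1 and 2, against -2.13 on lesioned saline replicate 2. Vascular means were -1.61 on L-DOPA replicate 1 and -1.53 on lesioned saline replicate 3. Interneuron means were -0.81 on L-DOPA replicate 1 and -1.03 on L-DOPA plus zonisamide replicate 2. The sum of 8 microglial markers was at least 4.53 in lesioned saline and 3.91 to 4.46 on the non-lesioned side. It was 4.44 to 4.76 in L-DOPA and 4.13 to 4.28 in L-DOPA plus zonisamide. Among the markers, limma called 2 of 13 for spiny projection neurons and 1 of 4 for cortical neurons in L-DOPA against non-lesioned saline. In zonisamide against L-DOPA it called 1 of 4 for cortical neurons. Of all features, 1.16% and 0.479% were called in these comparisons. No marker of interneurons, pallidal or septal neurons, astrocytes, oligodendrocytes, microglia, vessels, meninges or choroid plexus was called in any comparison. Lists without a call could still lean 1 way. All 9 choroid plexus markers were higher in L-DOPA than in lesioned saline, with a median difference of 2.91. Of 8 vascular markers, 0 were higher in zonisamide than in L-DOPA, with a median difference of -0.80. The part of these cell types in the levels below was not tested, apart from a fit with Ttr, the most abundant choroid plexus transcript, as a covariate. Arrays lay on 5 slides, and only 3 of the slides held more than 1 group.

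The promoters of Gad1, Gad2 and Slc12a5 are shown because the arrays of at least 1 pair of groups did not overlap for these 3 genes. In a single comparison the groups did not overlap for 7.19% to 22.4% of all features. The share over all features for at least 1 pair was not computed, so the rule does not set these genes apart. Each line gives 250 bases before to 50 after the start of the gene on the strand of the gene, from RefSeq on the GRCr8 assembly, and capitals mark letters that matched a searched motif on either strand. The window of Gad1 is chr3:75777202-75777501, that of Gad2 chr17:89671468-89671767 and that of Slc12a5 chr3:174115583-174115882, all on the plus strand.
Gad1: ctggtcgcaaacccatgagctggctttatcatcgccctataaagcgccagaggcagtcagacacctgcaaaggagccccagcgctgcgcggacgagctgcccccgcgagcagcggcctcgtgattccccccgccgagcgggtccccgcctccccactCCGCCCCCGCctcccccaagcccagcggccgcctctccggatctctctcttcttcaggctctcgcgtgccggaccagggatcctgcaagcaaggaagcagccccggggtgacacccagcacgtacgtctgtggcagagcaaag
Gad2: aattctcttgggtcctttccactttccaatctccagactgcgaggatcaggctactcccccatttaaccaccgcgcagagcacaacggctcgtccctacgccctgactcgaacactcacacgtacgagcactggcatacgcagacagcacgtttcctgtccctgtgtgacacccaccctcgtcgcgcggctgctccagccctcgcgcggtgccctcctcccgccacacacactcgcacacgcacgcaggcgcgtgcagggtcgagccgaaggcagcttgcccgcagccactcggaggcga
Slc12a5: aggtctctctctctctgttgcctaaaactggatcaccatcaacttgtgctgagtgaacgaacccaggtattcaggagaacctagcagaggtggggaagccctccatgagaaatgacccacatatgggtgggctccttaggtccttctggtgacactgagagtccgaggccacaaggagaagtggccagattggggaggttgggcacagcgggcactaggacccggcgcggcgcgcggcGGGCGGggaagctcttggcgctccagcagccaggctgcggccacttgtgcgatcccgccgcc
The motifs searched were the cyclic AMP response element TGACGTCA, its shorter site TGACG, the GC box GGGCGG, the EGR motif GCGGGGGCG and the E-box CACGTG. In Gad1 a GC box began at -93 and an EGR motif at -92, which overlap and form 1 run of capitals, where positions are counted from the start site. Of 33469 rat promoters of the same length, 33.1% held the GC box and 2.73% the EGR motif. Slc12a5 held a GC box at -12, and Gad2 held none of the 5 motifs. The cyclic AMP response element stood in 1.83% of all promoters, its shorter site in 21.2% and the E-box in 6.42%, and in none of these 3 genes. All 3 windows were rich in G and C, at 67.7%, 63.7% and 61.3%, against a median of 51.7% over all promoters. A match is a description of the letters and was not tied to any value below.

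Gad1, the gene of the larger glutamate decarboxylase, had a higher mean in lesioned saline than on the non-lesioned side, by less than the range of the non-lesioned arrays, and did not pass the test over all features. Its level on the 3 non-lesioned arrays was 3.64, 3.94 and 4.58. In lesioned saline it was 5.01, 4.78 and 4.79. It stood at 4.52, 5.18 and 4.84 in L-DOPA and at 4.16, 4.68 and 4.37 in L-DOPA plus zonisamide. All 3 lesioned saline arrays lay above all 3 non-lesioned arrays, the L-DOPA arrays overlapped both, and the zonisamide arrays lay below every lesioned saline array. By group mean the order was non-lesioned 4.05 ± 0.48 (SD, n = 3), L-DOPA plus zonisamide 4.40 ± 0.26, L-DOPA 4.85 ± 0.33 and lesioned saline 4.86 ± 0.13. The non-lesioned and zonisamide groups overlapped, as did the zonisamide and L-DOPA groups and the L-DOPA and lesioned saline groups.

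**Figure D1:**
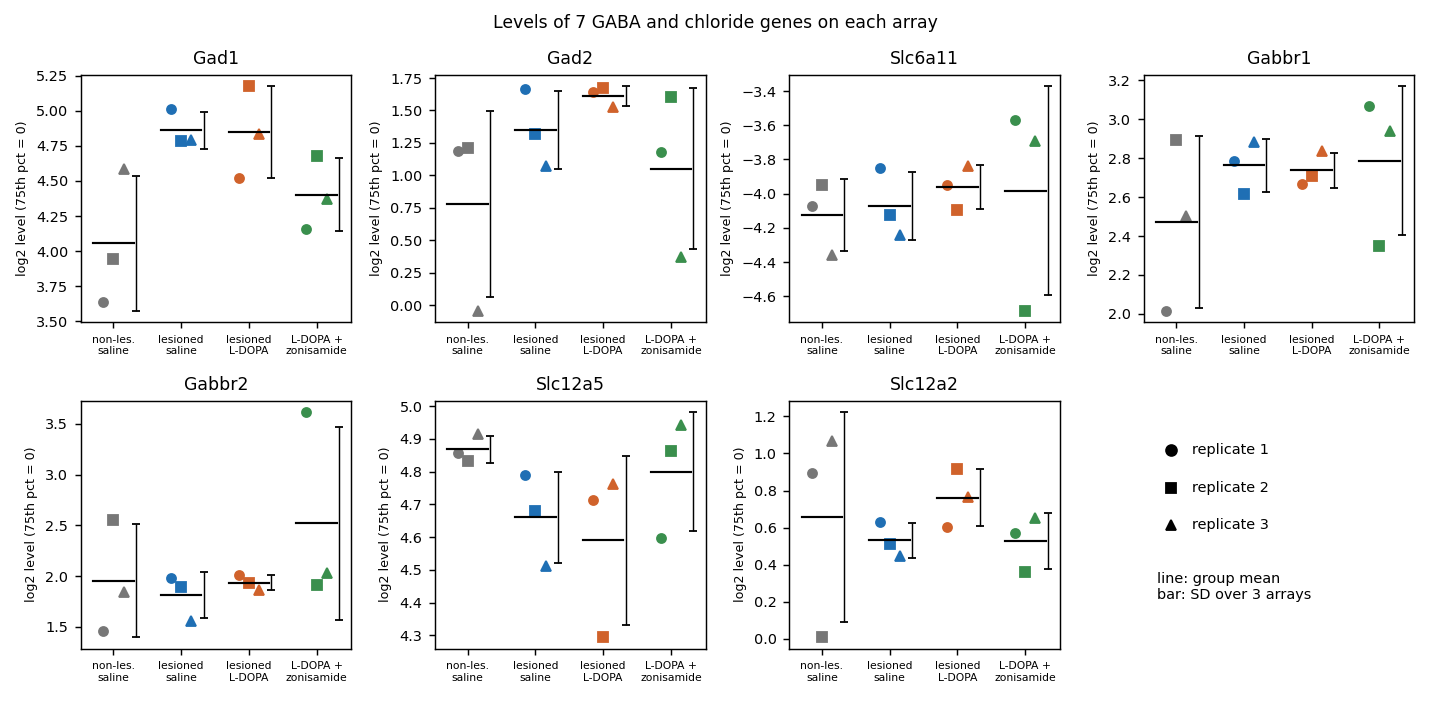
Log2 level of 7 genes (y axis, relative to the 75th percentile of each array) in the 4 groups (x axis), with 1 point per array, a line at the group mean and a bar of 1 SD over 3 arrays. Gad1 lies at 3.64 to 4.58 on the non-lesioned side and at 4.78 to 5.01 in lesioned saline, while Gabbr2 has 1 zonisamide array at 3.62 far above the other 11.

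The Gad1 difference between lesioned and non-lesioned saline was 0.81 ± 0.26 (SE) on the log2 scale, a 1.75-fold higher level with a 95% interval from 1.17 to 2.61. In limma its unadjusted p was 0.0109 and its adjusted p was 0.503, so it was not called. L-DOPA minus non-lesioned saline gave 0.79 ± 0.26 with an unadjusted p of 0.012 and an adjusted p of 0.2. The 2 drug groups lay apart by less: L-DOPA plus zonisamide minus L-DOPA was -0.44 ± 0.26, with a 95% interval from -1.02 to 0.13 and an adjusted p of 0.543 in limma. Against lesioned saline the zonisamide group differed by -0.46 ± 0.26, with a limma adjusted p of 0.697. L-DOPA and lesioned saline differed by -0.01, with a 95% interval from -0.59 to 0.56.

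The same-slide pairs of arrays kept the direction of the Gad1 differences from the non-lesioned side. Lesioned minus non-lesioned saline was 1.37 on the slide that held both, and L-DOPA minus non-lesioned saline was 0.88 and 0.89 on the pair of slides that held both. Zonisamide minus L-DOPA was -0.36, -0.47 and -0.50 on its 3 slides. L-DOPA minus lesioned saline turned direction between slides, at -0.49 and 0.40, and zonisamide minus lesioned saline was -0.85 and -0.11. With slide as a fixed term the lesion difference was 1.03. In that fit zonisamide minus L-DOPA was -0.44 ± 0.20 (SE), with a limma unadjusted p of 0.0677 and an adjusted p of 0.39.

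The Gad1 values rest on 2 spots that did not match on several arrays. The spots stood at 2.69 and 4.59 on non-lesioned replicate 1 and at 3.28 and 5.46 on L-DOPA plus zonisamide replicate 3, while on lesioned saline replicate 3 they were 4.78 and 4.79. Taking the higher spot of each probe, the saline groups overlapped and the lesioned minus non-lesioned difference was 0.39 with a limma unadjusted p of 0.199, and taking the lower spot it was 1.22. Zonisamide minus lesioned saline was 0.06 with the higher spots and -0.97 with the lower ones, so its direction depends on this choice. L-DOPA minus non-lesioned saline was 0.72 with the higher spots and 0.86 with the lower ones. A choice of spot was added after the values were seen.

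**Figure D2:**
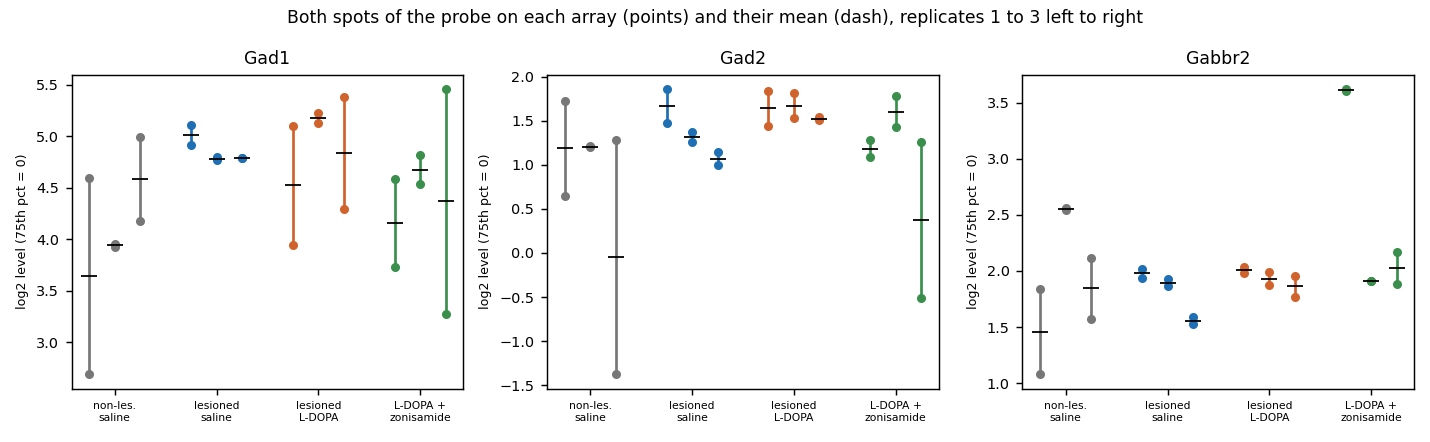
Log2 level of both spots (points joined by a line) and their mean (dash) on each array for Gad1, Gad2 and Gabbr2, with replicates 1 to 3 from left to right within each group. The Gad1 spots of non-lesioned replicate 1 lie at 2.69 and 4.59 and those of lesioned saline replicate 3 at 4.78 and 4.79, whereas both Gabbr2 spots of L-DOPA plus zonisamide replicate 1 lie near 3.62.

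A second, dimmer Gad1 probe of 1 spot gave a smaller lesion difference. It stood at -1.41, -1.18 and -1.30 on the non-lesioned side and at -1.02, -1.23 and -1.10 in lesioned saline. It was -1.12, -1.49 and -0.33 in L-DOPA and -1.69, -1.51 and -1.45 in L-DOPA plus zonisamide. The saline groups overlapped, and the zonisamide arrays and L-DOPA replicate 2 were the lowest 4 of the 12. Lesioned minus non-lesioned saline was 0.17 ± 0.25 with this probe, zonisamide minus L-DOPA was -0.57 ± 0.25, and zonisamide minus lesioned saline was -0.43 ± 0.25, again with no overlap. With the mean of both probes the lesion difference was 0.49. Without non-lesioned replicate 1 the brighter probe gave 0.60, and without non-lesioned replicate 3 it gave 1.07.

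Gad2, the gene of the smaller decarboxylase, was 1.18, 1.21 and -0.05 on the non-lesioned side. It was 1.67, 1.32 and 1.07 in lesioned saline, 1.64, 1.67 and 1.52 in L-DOPA, and 1.18, 1.60 and 0.37 in L-DOPA plus zonisamide. The L-DOPA arrays were close together and lay above all non-lesioned arrays, and the lowest values of the 12 were on non-lesioned replicate 3 and on L-DOPA plus zonisamide replicate 3. L-DOPA minus non-lesioned saline was 0.83 ± 0.38, with a 95% interval from -0.01 to 1.67 and a limma adjusted p of 0.361. Lesioned minus non-lesioned saline was 0.57 ± 0.38 with an adjusted p of 0.687, and zonisamide minus L-DOPA was -0.56 ± 0.38 with an adjusted p of 0.615, both from limma. These differences were not called.

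The non-lesioned mean of Gad2 turned on 1 array. Without non-lesioned replicate 3, lesioned minus non-lesioned saline was 0.16 and L-DOPA minus non-lesioned saline was 0.42. The spots on that array stood at -1.38 and 1.29, and on L-DOPA plus zonisamide replicate 3 at -0.51 and 1.26. With the higher spot of each probe those differences were 0.06 and 0.33. Ttr stood at 6.73 and 6.67 on these arrays, and at 6.89 and 7.27 on L-DOPA replicates 3 and 2, and its part in the Gad2 level was not tested beyond the covariate fit. With Ttr as a covariate L-DOPA minus non-lesioned saline was 1.22, with an adjusted p of 0.115 in limma, and with slide as a fixed term it was 0.32. Gad2 within slides was 0.46 and 0.32 for the same comparison.

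Slc6a11, the astrocytic GABA transporter GAT-3, was dim, with processed signals from 61.7 to 92.4 intensity units. Its level was -4.07, -3.95 and -4.36 on the non-lesioned side and -3.85, -4.12 and -4.24 in lesioned saline. It was -3.95, -4.09 and -3.84 in L-DOPA and -3.57, -4.69 and -3.69 in L-DOPA plus zonisamide. All groups overlapped, and both the highest and the lowest of the 12 values were zonisamide arrays. The 6 differences lay between -0.02 and 0.17, each with a standard error of 0.27, and their limma intervals reached from -0.63 at the lowest to 0.77 at the highest.

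Gabbr1, the GABA-binding subunit of the GABA-B receptor, was 2.01, 2.90 and 2.50 on the non-lesioned side and 2.79, 2.62 and 2.88 in lesioned saline. It was 2.66, 2.71 and 2.84 in L-DOPA and 3.07, 2.35 and 2.94 in L-DOPA plus zonisamide. The groups overlapped in all comparisons, and the 3 lesioned groups had nearly the same mean, at 2.76, 2.74 and 2.79. Lesioned minus non-lesioned saline was 0.29 ± 0.24, with a limma adjusted p of 0.744. It turned on non-lesioned replicate 1, where the spots stood at 1.03 and 3.00: without that array it was 0.06, and with the higher spot of each probe it was -0.01. A dimmer Gabbr1 probe gave 0.16 ± 0.34 for the same difference, with 1 low non-lesioned array at -0.30.

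Gabbr2, the partner subunit that engages the G protein, was 1.46, 2.56 and 1.85 on the non-lesioned side and 1.98, 1.90 and 1.56 in lesioned saline. It was 2.01, 1.93 and 1.86 in L-DOPA and 3.62, 1.91 and 2.03 in L-DOPA plus zonisamide. The array at 3.62 was the highest of all 12, and its 2 spots stood at 3.61 and 3.63. Zonisamide minus L-DOPA was 0.59 ± 0.42 and zonisamide minus lesioned saline was 0.71 ± 0.42, with limma adjusted p of 0.642 and 0.712. Without that array the differences were 0.04 and 0.16. On the slide that held it zonisamide minus L-DOPA was 1.61, and on the other slides it was 0.17 and -0.02.

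Slc12a5, the chloride exporter KCC2, had 10 spots on the array, of which 6 to 10 were used, and had the smallest standard error of the 7 genes. It was 4.86, 4.83 and 4.91 on the non-lesioned side and 4.79, 4.68 and 4.51 in lesioned saline. It was 4.72, 4.29 and 4.76 in L-DOPA and 4.60, 4.86 and 4.94 in L-DOPA plus zonisamide. All 3 non-lesioned arrays lay above all lesioned saline and all L-DOPA arrays, by a small margin, and the zonisamide arrays overlapped every group. By mean the order was L-DOPA 4.59 ± 0.26 (SD, n = 3), lesioned saline 4.66 ± 0.14, L-DOPA plus zonisamide 4.80 ± 0.18 and non-lesioned saline 4.87 ± 0.04, and each neighbouring pair in that order overlapped.

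The Slc12a5 differences were small against their errors. Lesioned minus non-lesioned saline was -0.21 ± 0.17, a ratio of 0.866 with a 95% interval from 0.671 to 1.12 and a limma adjusted p of 0.73. L-DOPA minus non-lesioned saline was -0.28 ± 0.17, with a limma adjusted p of 0.495. Zonisamide minus L-DOPA was 0.21 ± 0.17, with a limma adjusted p of 0.675. The 95% interval of the ratio was 0.64 to 1.06 for L-DOPA over non-lesioned saline and 0.896 to 1.49 for zonisamide over L-DOPA. Within the slide that held both saline groups the lesion difference was -0.07, with slide as a fixed term it was 0.01, and it was 0.12 with the lowest spot of each array and -0.45 with the highest. A dimmer Slc12a5 probe gave 0.17 ± 0.26 for lesioned minus non-lesioned saline, the opposite sign.

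Slc12a2, the chloride importer NKCC1, was 0.89, 0.01 and 1.07 on the non-lesioned side and 0.63, 0.51 and 0.45 in lesioned saline. It was 0.61, 0.92 and 0.77 in L-DOPA and 0.57, 0.36 and 0.65 in L-DOPA plus zonisamide. The non-lesioned arrays held both the highest and the lowest value, and all groups overlapped. Its 10 spots on the lowest array spread with an SD of 0.97. Lesioned minus non-lesioned saline was -0.12 ± 0.25 and L-DOPA minus lesioned saline was 0.23 ± 0.25, with limma adjusted p of 0.912 and 0.785. Without non-lesioned replicate 2 the lesion difference was -0.45, and without non-lesioned replicate 3 it was 0.08. With slide as a fixed term it was 0.07. The highest spot of each array was 1.37, 0.81 and 1.49 on the non-lesioned side and 0.90, 0.64 and 0.52 in lesioned saline. The lowest was 0.57, -2.08 and -0.09 on the non-lesioned side and 0.50, 0.33 and 0.35 in lesioned saline. By group mean the direction of the lesion difference turned with the choice of spot. A dimmer Slc12a2 probe of 1 spot gave -0.36 ± 0.38 for the lesion and 0.03 ± 0.38 for L-DOPA minus lesioned saline.

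**Figure D3:**
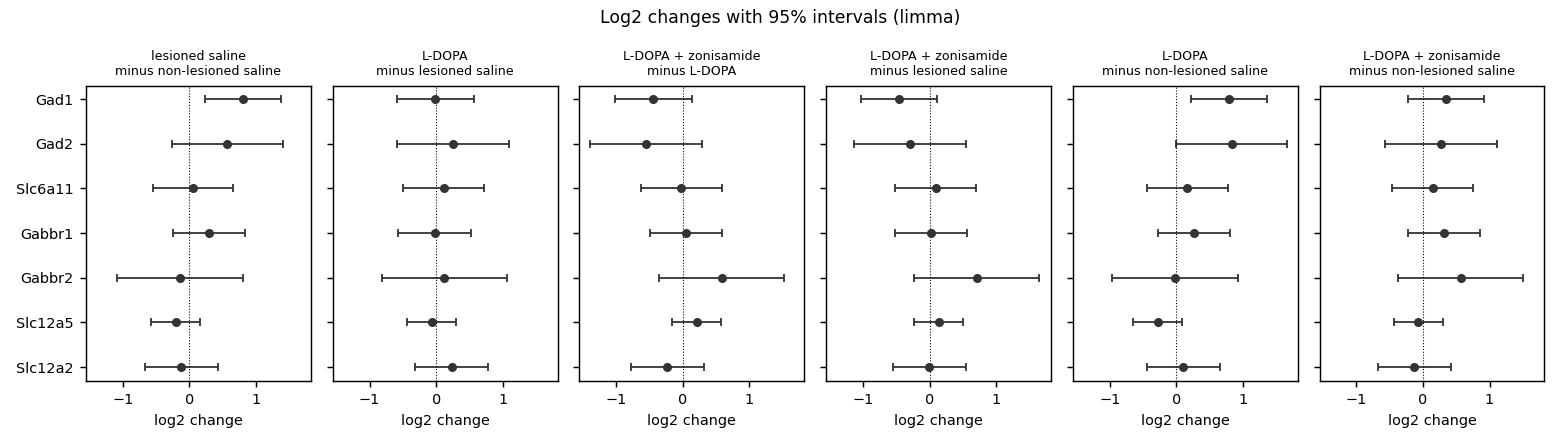
Log2 difference (point, x axis) and its 95% interval in limma (bar) for 7 genes in 6 comparisons, 1 panel each, with a dotted line at 0. The interval of Gad1 leaves out 0 for lesioned minus non-lesioned saline, at 0.23 to 1.38, and for L-DOPA minus non-lesioned saline, and all other intervals include 0.

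Taking the 7 genes by comparison, lesioned against non-lesioned saline asks what loss of dopamine input leaves in the striatum. With limma, 0 of 7 genes were called, as were 0 of 19412 features (0%). At an unadjusted p under 0.05 there was 1 gene, Gad1, against 8.48% of all features. In 2 of 7 genes the arrays of the groups did not overlap, Gad1 higher and Slc12a5 lower in lesioned saline, against 17.0% of all features. The median difference of the 7 genes was 0.05, and that of all features 0.05.

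L-DOPA against lesioned saline asks what daily dopamine replacement adds. Again 0 of 7 genes were called, against 0.433% of all features, and 0 of 7 had an unadjusted p under 0.05 in limma, against 11.3%. In 0 of 7 genes the arrays failed to overlap, against 22.4%. The median size of the difference, without its sign, was 0.11 over the 7 genes and 0.24 over all features.

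L-DOPA plus zonisamide against L-DOPA asks what the added drug does. With limma 0 of 7 genes were called, against 0.479% of all features, 0 had an unadjusted p under 0.05, against 12.4%, and 0 had separate groups, against 17.3%. The median size was 0.24 over both the 7 genes and all features. Same-numbered arrays shared a slide in this comparison. With the replicate number as a block over all 12 arrays, 0 of 7 genes were called and called features went from 93 to 13. Between the saline groups, replicates 2 and 3 did not share a slide, and their deviations correlated at -0.09 and -0.13. The fall in called features therefore does not show what pairing by slide alone would do here.

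L-DOPA plus zonisamide against lesioned saline gave 0 of 7 genes called in limma, against 0% of all features. An unadjusted p under 0.05 was found in 0 of 7, against 7.34%, and 1 of 7, Gad1, had separate groups, against 18.1%. L-DOPA against non-lesioned saline gave 0 of 7 called, against 1.16%, 1 of 7 (Gad1) at an unadjusted p under 0.05, against 14.1%, and 2 of 7 with separate groups, against 18.9%. Those were Gad2, higher in L-DOPA, and Slc12a5, lower. L-DOPA plus zonisamide against non-lesioned saline gave 0 of 7 called in limma, against 0%, and 0 of 7 at an unadjusted p under 0.05, against 4.23%. Separate groups were found in 0 of 7, against 7.19%.

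Of 37 further genes of GABA metabolism, transport, GABA-B signalling and chloride handling, 30 were tied to a probe and 28 were tested. With limma 0 of 28 were called in every one of the 6 comparisons, higher or lower. Of all features 0% to 1.16% were called, depending on the comparison, so 0 of 28 is near that share. At an unadjusted p under 0.05 there were 1 for lesioned against non-lesioned saline (8.48% of all features), 6 for L-DOPA against lesioned saline, 4 higher and 2 lower (11.3% of all features), and 5 for zonisamide against L-DOPA, 3 higher and 2 lower (12.4%). There were 4 for zonisamide against lesioned saline (7.34%), 5 for L-DOPA against non-lesioned saline (14.1%) and 2 for zonisamide against non-lesioned saline (4.23%). The median difference of the 28 genes lay between -0.01 and 0.10 over the 6 comparisons.

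Clcn2, a chloride channel gated by voltage, had the lowest adjusted p of the list. Its level was -0.86, -0.90 and -1.21 on the non-lesioned side, -1.31, -1.20 and -1.50 in lesioned saline, -1.62, -2.26 and -1.84 in L-DOPA and -1.45, -0.84 and -1.08 in L-DOPA plus zonisamide. The L-DOPA arrays were the lowest 3 of the 12. L-DOPA minus non-lesioned saline was -0.91 ± 0.21 with a limma adjusted p of 0.0759, and zonisamide minus L-DOPA was 0.78 ± 0.21 with an adjusted p of 0.151 in limma. Neither passed the threshold.

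Rgs7, a regulator that shortens G protein signalling and binds near GABA-B effector channels, was -1.61, -1.25 and -1.36 on the non-lesioned side and -2.07, -1.45 and -1.78 in lesioned saline. It was -1.02, -1.27 and -1.22 in L-DOPA and -0.90, -0.96 and -0.91 in L-DOPA plus zonisamide. The zonisamide arrays were the 3 highest of the 12. Zonisamide minus lesioned saline was 0.84 ± 0.18, with a limma unadjusted p of 0.000693 and an adjusted p of 0.493. Kctd8, an auxiliary subunit of GABA-B receptors, was -2.19, -3.50 and -2.73 in L-DOPA and -2.12, -1.99 and -1.98 in L-DOPA plus zonisamide, with a difference of 0.78 ± 0.29 and a limma adjusted p of 0.295.

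Slc4a3, an anion exchanger, was 3.97, 4.06 and 3.72 on the non-lesioned side and 3.47, 3.43 and 3.33 in lesioned saline. It had the smallest p of the list for the lesion, with a difference of -0.51 ± 0.18 and a limma adjusted p of 0.542. Slc6a12, the betaine and GABA transporter, was -4.76, -5.27 and -5.09 in L-DOPA and -6.37, -6.82 and -7.13 in L-DOPA plus zonisamide, with a difference of -1.73 ± 0.61 and a limma adjusted p of 0.274. In lesioned saline Slc6a12 was spread from -6.37 to -3.52, and on non-lesioned replicate 2 it stood at -6.04. Its zonisamide levels were below every level of Slc6a11, itself dim, so the difference rests on low signals. Kcnj3, a potassium channel opened by GABA-B receptors, differed by -0.87 ± 0.33 between L-DOPA and lesioned saline, with a limma adjusted p of 0.35. Kctd16, another auxiliary subunit of GABA-B receptors, differed by -1.28 ± 0.76 between the saline groups, where lesioned saline replicate 1 stood at -3.41 and the other 5 arrays between -0.36 and 0.46. Slc6a13, the GABA transporter GAT-2, differed by -0.39 ± 0.22 between zonisamide and the non-lesioned side, with a limma adjusted p of 1. Clcn3, a chloride and proton exchanger, differed by -1.05 ± 0.44 between zonisamide and lesioned saline, with a limma adjusted p of 0.666.

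**Figure D4:**
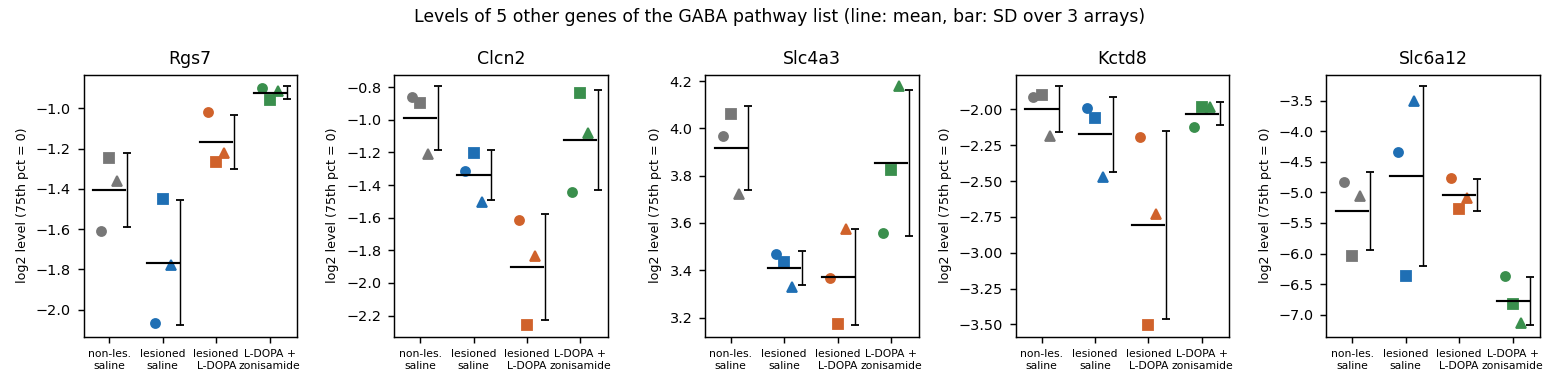
Log2 level (y axis, relative to the 75th percentile of each array) of Rgs7, Clcn2, Slc4a3, Kctd8 and Slc6a12 in the 4 groups, with 1 point per array, a line at the mean and a bar of 1 SD over 3 arrays. The 3 L-DOPA arrays of Clcn2 lie between -2.26 and -1.62, below the other 9, and none of the 5 genes passed the threshold. Slc6a12 rests on low signals, at -7.13 to -6.37 in L-DOPA plus zonisamide.

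Features whose levels over the 12 arrays were most like each gene were listed as a description, with Pearson's r over 12 arrays that share groups and slides. Mtmr3 and Map2k1, at r = 0.92 each, were among the features most like Slc12a5. Gad1 was most like Mmd (r = 0.90), Syt10 and Cyp2j4. Gad2 was most like Actb (r = 0.93), the gene of cytoplasmic actin, then Wnk1 and Pdgfc. Wnk1 encodes a kinase that acts on chloride carriers. It was lowest on non-lesioned replicate 3, at -5.49, and on L-DOPA plus zonisamide replicate 3, at -4.93, the arrays on which Gad2 was lowest. Both arrays had a replicate-spot spread of 21.8% and 27.8%, and the Gad2 spots lay far apart on each, so this likeness leans on them. Gabbr2 was most like Adra1b (r = 0.97), Irx1 and Adcy8. On the zonisamide array where Gabbr2 was 3.62 these genes stood at 2.03, -1.89 and -1.81, and the next highest array for each was non-lesioned replicate 2, at 0.37, -3.33 and -3.51. Gabbr1 was most like Kcnk3 (r = 0.93), Slc6a11 most like Apoc2 (r = 0.89) and Slc12a2 most like Msx2 (r = 0.91).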

How the data were processed

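RNA of the striatum was measured on 12 Agilent arrays, 3 per group. The authors made the scanner files with Agilent Feature Extraction, version 10.7.3.1 per the file headers, and the deposited processed signal is an intensity with background subtracted, not scaled between arrays. The log2 values used here were computed from that deposited intensity: unflagged spots of a probe were averaged, and each array's 75th percentile was subtracted. A probe was tested if at least 0.5 of its spots were marked well above background on all 3 arrays of a group, which left 21469 probes and 19412 features. The brightest probe stood for a gene. Symbols came from RefSeq accessions, of which 17328 of 30367 probes matched 1.

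One limma model (3.58.1, R 4.3.3, data.table in version 1.17.8) with 4 groups was fitted, leaving 8 residual degrees of freedom, and was tested on simulated data. An exact permutation test of 3 against 3 arrays cannot go below 0.1, so none is given. In the zonisamide against L-DOPA comparison same-numbered arrays shared a slide and their deviations correlated at 0.37, 0.19 and 0.25, so the numbers pair the arrays there. The genes, the pathway and marker lists and the rule for naming (all members, the 3 pathway genes with the smallest p in each comparison, the 3 most like features of a member, the brightest marker of a list) were chosen with earlier results of these data known; Wnk1 is named under the likeness rule, and not every gene the rule selects is reported here. Alternatives were quantile normalization, normexp (offset 50) on median spot brightness with quantile normalization, other filters, probe means, only the groups compared, an intensity trend, array weights, replicate and slide blocks, Ttr as a covariate, leaving out arrays, and the highest or lowest spot of a probe, the last added after the data were seen.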

Additional observations from a re-analysis of the deposited data

How the results depend on the processing

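The number of the 7 genes called, and of the 28 pathway genes called, was 0 in all 318 checks over 15 settings and 12 arrays left out in turn, so the range without each replicate was 0 to 0. The lowest adjusted p of a member was 0.0932, for Gad1 in L-DOPA against non-lesioned saline without non-lesioned replicate 3. Of 1113 member values 1019 kept the main direction and 37 moved by over 1 residual SD. With the replicate block 0 members were called in any comparison, and called features went from 84 to 34 for L-DOPA against lesioned saline, from 93 to 13 for zonisamide against L-DOPA and from 225 to 32 for L-DOPA against non-lesioned saline; the block changed no call among the members. Over all settings these 3 counts ran from 0 to 446, 0 to 188 and 0 to 313, and without each array from 2 to 210, 0 to 253 and 6 to 350. For lesioned against non-lesioned saline the count ran from 0 to 2 (without each array 0 to 13), for zonisamide against lesioned saline it was 0 (0 to 3), and for zonisamide against non-lesioned saline 0 to 5 (0 to 10). Quantile normalization moved the median of all features by -0.14 for the lesion and by 0.12 for zonisamide against lesioned saline, and the causes of these moves were not tested. Without the 5 arrays of high spot spread no non-lesioned array is left, so comparisons with that group were not run there. Precision is limited by group size, 3 arrays each.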
